A study of Mus musculus with 46 samples.

Results

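Cytochrome P450 enzymes of families 1, 2 and 3 were described in cecum and liver of mice fed 4 diets. The members were chosen by name: each array probe whose RefSeq accession belongs to a gene with a symbol of the form Cyp, the family number 1, 2 or 3, a letter and a number. They came to 70 probes for 54 genes, of 55681 probes and 20887 named genes on the array. For each gene the probe with the brightest mean signal in the tissue was used, and the gene was kept where 1 or more diets had the probe well above background on all their arrays. In cecum 29 of the 54 genes were kept and 25 were not, and in liver 43 were kept and 11 were not. The 2 tissues shared 26 kept genes, 3 were kept in cecum only, 17 in liver only and 8 in neither. No probe was matched to Cyp2a5, Cyp2c40, Cyp2c69 or Cyp2j12.

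The mice were male C57Bl/6, 12 weeks old at the start and 20 weeks old after 8 weeks on diet. HFD had 45% of its energy from fat and LFD had 10%. HFD + inulin was the same high fat diet with 5% corn starch and 5% cellulose by weight replaced by inulin, a fermentable fructose polymer. HFD + inul PB held in their place equal parts of an inulin propionate ester and an inulin butyrate ester, which release these short chain fatty acids. The comparison with HFD asks what the fiber did on the high fat diet, and LFD serves to tell an effect of fiber from one of body weight and adiposity. For cecum there were 6 arrays each of HFD and HFD + inulin and 5 each of LFD and HFD + inul PB. For liver there were 6 of each diet. All samples were whole tissue, and the labels do not say that each array held its own mouse, so P values measure the spread between these samples.

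Family 1 to 3 P450s are membrane enzymes that add oxygen to foreign compounds and also to steroids, fatty acids and retinoids, with electrons passed on from P450 reductase. Most are made chiefly in hepatocytes, where the receptors AhR, CAR and PXR switch families 1, 2 and 3 on when foreign compounds arrive and HNF4A maintains many of them. The gut epithelium has a smaller set of its own. Many members lie as tandem copies in gene clusters, so their mRNAs are near neighbours in sequence and a probe may also bind the mRNA of a neighbour. This holds above all for Cyp2c, Cyp2d and Cyp3a, and each probe was therefore read as a signal of its subfamily that is uncertain as to the exact copy.

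The results in cecum turn on the Cyp2d cluster on chromosome 15 and on a pair of Cyp2c neighbours on chromosome 19. Start sites of some of these genes are shown so that the likeness of neighbouring copies can be seen beside their values. None was listed for Cyp2d12, Cyp2d13, Cyp2d22 and Cyp2d34, so only part of the Cyp2d cluster is shown. The 150 bases upstream of the RefSeq start (build GRCm38.p6) were read for Cyp2d9 at chr15:82452227-82452376 (plus strand), Cyp2d10 at chr15:82407195-82407344 (minus strand), Cyp2d11 at chr15:82394023-82394172 (minus strand), Cyp2d40 at chr15:82764123-82764272 (minus strand), Cyp2d26 at chr15:82794246-82794395 (minus strand), Cyp2c67 at chr19:39649043-39649192 (minus strand) and Cyp2c68 at chr19:39741102-39741251 (minus strand). They are printed 5′ to 3′ on the gene's own strand, and capitals mark a match to CAAAGNNCA, searched on both strands, and the form CAAAGTCCA is that of the HNF4A motif.
Cyp2d9: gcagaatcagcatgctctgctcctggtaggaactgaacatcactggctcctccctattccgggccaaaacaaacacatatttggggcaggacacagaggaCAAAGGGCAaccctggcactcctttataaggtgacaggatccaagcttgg
Cyp2d10: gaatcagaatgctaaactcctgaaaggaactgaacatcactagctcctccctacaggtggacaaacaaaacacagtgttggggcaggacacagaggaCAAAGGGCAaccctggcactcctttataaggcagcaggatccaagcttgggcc
Cyp2d11: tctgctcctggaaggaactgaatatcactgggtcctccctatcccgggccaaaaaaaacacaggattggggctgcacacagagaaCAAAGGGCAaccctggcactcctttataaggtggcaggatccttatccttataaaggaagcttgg
Cyp2d40: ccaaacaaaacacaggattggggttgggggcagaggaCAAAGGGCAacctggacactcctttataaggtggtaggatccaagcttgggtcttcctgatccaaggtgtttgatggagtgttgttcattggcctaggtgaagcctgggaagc
Cyp2d26: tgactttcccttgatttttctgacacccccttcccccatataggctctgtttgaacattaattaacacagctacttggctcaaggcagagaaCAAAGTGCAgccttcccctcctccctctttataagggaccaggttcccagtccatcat
Cyp2c67: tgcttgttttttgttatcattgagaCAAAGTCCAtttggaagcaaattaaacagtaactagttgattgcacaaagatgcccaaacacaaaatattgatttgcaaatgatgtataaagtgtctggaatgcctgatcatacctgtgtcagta
Cyp2c68: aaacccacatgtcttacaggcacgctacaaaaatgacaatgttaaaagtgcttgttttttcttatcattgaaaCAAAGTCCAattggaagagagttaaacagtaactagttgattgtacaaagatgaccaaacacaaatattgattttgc

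Cyp2d9, Cyp2d10, Cyp2d11 and Cyp2d40 carried the same letters CAAAGGGCA, with the first base at -50, -53, -65 and -113 from the start. Cyp2d26 carried CAAAGTGCA at -58, and Cyp2c67 and Cyp2c68 carried CAAAGTCCA at -125 and -77. CAAAGNNCA was present upstream of 1067 of 32851 RefSeq starts (3.25%) and of 18 of the 53 listed starts of P450 members. CAAAGTCCA, whose matches are all matches of the first motif too, was present upstream of 89 starts (0.271%) and of 8 of the 53. Over the aligned bases Cyp2d9 was identical with Cyp2d10 at 126 of 147 positions (85.7%), with Cyp2d11 at 119 of 137 (86.9%), with Cyp2d40 at 74 of 88 (84.1%) and with Cyp2d26 at 89 of 153 (58.2%). Cyp2c67 and Cyp2c68 were identical at 93 of 103 (90.3%). These are matches of letters and not measured binding sites.

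Between 46.9% and 54.4% of probes were well above background on a cecum array, and between 45.2% and 50.5% on a liver array. The labelled tissues carried their markers: all 10 intestinal epithelium genes were kept in cecum, and all 13 hepatocyte genes on the array were kept in liver. One cecum array stood apart. HFD replicate 5 had the lowest summed signal of absorptive colonocyte markers of all cecum arrays (19.40 on the log2 scale), the highest of goblet cell markers (20.20) and the highest of hepatocyte genes (14.64, against 12.49 to 13.33 on the other cecum arrays). Of the 13 hepatocyte genes on the array, 6 were kept in cecum. On HFD replicate 5 the signal of Apoa1 alone was 14.41, while Alb was well above background on no cecum array. The hepatocyte sum therefore does not show that these genes were high as a group. HFD replicate 5 is part of every cecum comparison with HFD, so the members that changed there are also given without it. Each tissue filled 3 slides of its own with all 4 diets on each slide, so tissue and slide cannot be told apart.

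In cecum, most of the Cyp2d subfamily rose on both fiber diets while Cyp2c67 and Cyp2c68 fell. A member was counted as changed when its fold exceeded 1.5 and its unadjusted P was below 0.01 in the limma fit, and the Benjamini-Hochberg adjusted P over 55681 probes is given beside it. On HFD + inulin against HFD, 9 of the 29 kept members changed, where 3.75% of all 27165 probes that passed the same background filter did. Of these 6 rose (1.79% of all probes did) and 3 fell (1.96% did). On HFD + inul PB against HFD, 9 changed, where 7.8% of all probes did. Of these 7 rose (4.24% of all probes did) and 2 fell (3.56% did). On LFD against HFD 0 of 29 changed, where 0.633% of all probes did. An unadjusted P below 0.05 was reached by 15, 13 and 0 members on the 3 diets, beside 23.1%, 34.4% and 5.99% of all probes. By adjusted P alone 6, 9 and 0 members passed, beside 3.03%, 13.5% and 0% of all probes. Groups that did not overlap HFD were seen for 7, 9 and 0 members, beside 2.76%, 15% and 0.972% of all probes. The median difference of the kept members was 0.172, 0.23 and 0.143 on the log2 scale for inulin, inul PB and LFD, against 0.017, 0.016 and 0.003 for all probes. These comparisons share the HFD arrays and are not independent. The 4 kept genes Cyp2c37, Cyp2d40, Cyp2e1 and Cyp2w1 were not well above background on every array, and the counts are a description of the kept genes.

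**Figure D1:**
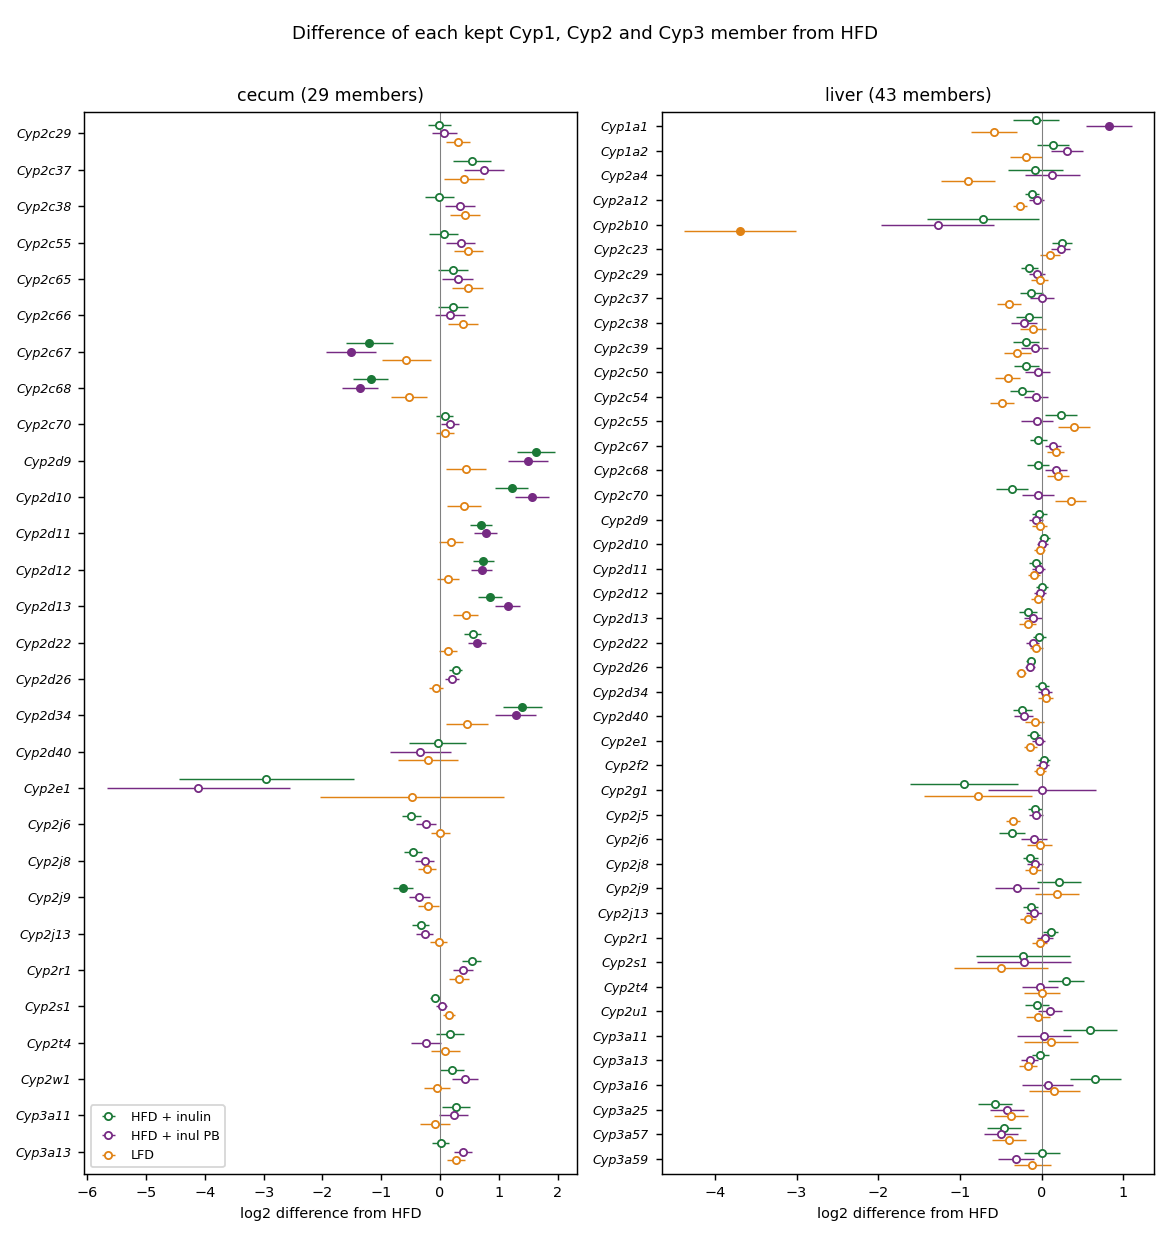
Log2 differences from HFD of the kept family 1 to 3 members in cecum and liver, 1 marker per gene and diet with its SE as a bar, and with filled markers for a fold over 1.5 and an unadjusted P below 0.01 and open markers for the rest. In cecum the filled markers lie among Cyp2d (above 0), Cyp2c67, Cyp2c68 and Cyp2j9 (below 0), and in liver only Cyp2b10 on LFD and Cyp1a1 on HFD + inul PB are filled.

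Cyp2d enzymes form a large mouse subfamily that oxidises many drugs and some steroids. All 9 members with a probe were kept in cecum, 6 rose with inulin and 7 with inul PB added to the HFD, and 0 changed on LFD. Their median log2 difference from HFD was 0.739, 0.774 and 0.179. The 7 that rose on at least 1 fiber diet were Cyp2d9, Cyp2d10, Cyp2d11, Cyp2d12, Cyp2d13, Cyp2d22 and Cyp2d34. Within the 3 slides, the differences of the 9 members from HFD ran from -1.19 to 2.34 on inulin and from -0.65 to 2.56 on inul PB, from the same arrays as the fit. The 9 probes may share signal, so they are not replicates of a diet, and the values of slide 3 include HFD replicate 5.

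Cyp2d9 is a steroid hydroxylase known for its male-biased level in mouse liver. In cecum its normalized log2 signal on the 6 HFD arrays was 6.66 at the lowest, 8.92 at the median and 9.37 at the highest. On HFD + inulin it was 9.96, 10.21 and 10.52, on the 5 HFD + inul PB arrays 10.04, 9.68, 10.21, 10.05 and 10.54, and on the 5 LFD arrays 8.36, 9.25, 9.32, 9.41 and 8.85. Every fiber array was above every HFD and LFD array. The difference from HFD was 1.63 ± 0.325 (SE), or 3.09-fold, on inulin (adjusted P = 0.0156 in limma, exact permutation P = 0.00216, the smallest these sizes allow). On inul PB it was 1.504 ± 0.341, or 2.84-fold (adjusted P = 0.011, exact permutation P = 0.00433), and on LFD 0.44 ± 0.341, which did not pass. Without HFD replicate 5 the 2 fiber differences were 1.24 and 1.12 and still passed.

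Cyp2d34 and Cyp2d10 followed. Cyp2d34 ran from 11.10 to 13.97 on HFD (median 13.60), from 14.36 to 14.80 on inulin (median 14.68), from 14.27 to 14.75 on inul PB (median 14.52) and from 13.21 to 14.05 on LFD (median 13.70). No fiber array reached down into the HFD or LFD range. The differences from HFD were 1.40 ± 0.334 (2.64-fold, adjusted P = 0.0399 in limma) and 1.29 ± 0.351 (2.45-fold, adjusted P = 0.0298), and a second Cyp2d34 probe gave 1.46 and 1.36. Without HFD replicate 5 they were 0.97 and 0.87.

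Cyp2d10 ran from 7.49 to 9.68 on HFD (median 9.12), from 9.75 to 10.56 on inulin (median 10.25), from 10.41 to 10.62 on inul PB (median 10.51) and from 8.80 to 9.83 on LFD (median 9.32). The fiber arrays lay above all HFD arrays, while the lowest inulin arrays overlapped the highest LFD arrays. The differences were 1.22 ± 0.276 (2.32-fold, adjusted P = 0.0315 in limma) and 1.56 ± 0.29 (2.96-fold, adjusted P = 0.00314), and 0.92 and 1.27 without HFD replicate 5.

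**Figure D2:**
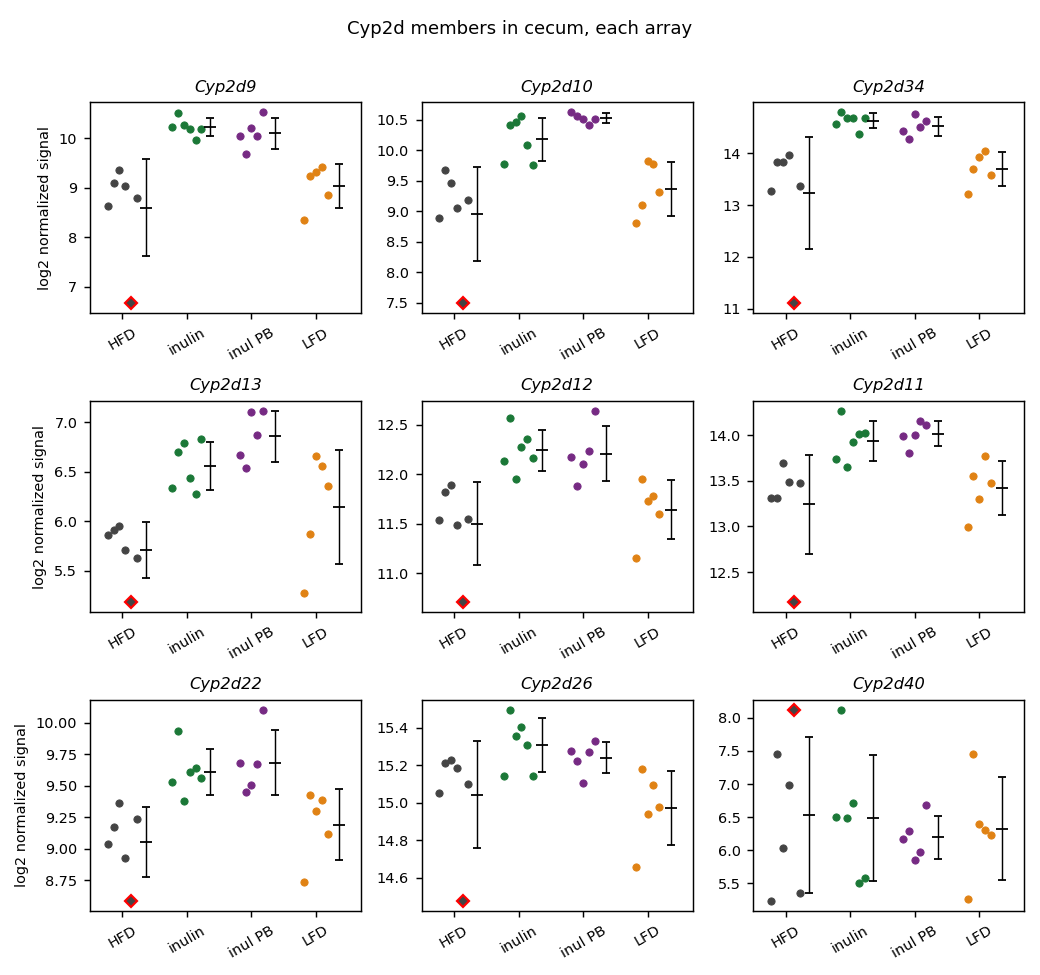
Normalized log2 signal of Cyp2d members in cecum by diet, 1 point per array with the mean ± SD beside it, and a red-edged diamond for HFD replicate 5. For Cyp2d9 the inulin arrays span 9.96 to 10.52 and the HFD arrays 6.66 to 9.37, and HFD replicate 5 is the lowest array.

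Cyp2d13, annotated in RefSeq as a transcribed pseudogene, rose from an HFD range of 5.18 to 5.95 to 6.27 to 6.83 on inulin and 6.54 to 7.12 on inul PB, with no overlap. The differences were 0.85 ± 0.2 (1.81-fold, adjusted P = 0.0367 in limma) and 1.15 ± 0.21 (2.22-fold, adjusted P = 0.00284). LFD arrays ran from 5.27 to 6.66 and overlapped both. Without HFD replicate 5 the Cyp2d13 differences were 0.75 and 1.05. With normexp, a background correction that lifts dim signals by a fixed offset and so shrinks their differences, they were 0.45, under the fold limit, and 0.65, and with the authors' processed values 0.52, also under it, and 0.75. Cyp2d12, Cyp2d11 and Cyp2d22 differed by less, between 1.47-fold and 1.71-fold. Cyp2d12 rose 1.67-fold on inulin (adjusted P = 0.0409) and 1.63-fold on inul PB (adjusted P = 0.0256, where 11.88 on the lowest inul PB array overlapped 11.89 on the highest HFD array). Cyp2d11 rose 1.62-fold (adjusted P = 0.0746) and 1.71-fold (adjusted P = 0.0252), and its ranges overlapped on inulin and not on inul PB. Cyp2d22, often taken as the counterpart of the main human Cyp2d enzyme, was 1.47-fold higher on inulin, under the 1.5-fold limit (adjusted P = 0.0545), and rose 1.55-fold on inul PB (adjusted P = 0.0148). Without HFD replicate 5, Cyp2d11, Cyp2d12 and Cyp2d22 were below the fold limit on both diets, at log2 differences of 0.46 to 0.58. Cyp2d22 on inul PB was also under the fold limit without inul PB replicate 5 (0.53), with normexp (0.55) and with the authors' processed values (0.57).

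The other 2 members of the cluster did not pass on either fiber diet. Cyp2d26 was 0.27 (95% confidence interval 0.03 to 0.51) higher on inulin and 0.20 (-0.05 to 0.45) on inul PB. Cyp2d40 was at -0.04 (-1.07 to 0.99) and -0.34 (-1.41 to 0.74), and its HFD arrays alone ran from 5.24 to 8.12, with HFD replicate 5 the highest. The Cyp2d40 interval on inulin holds the rises of Cyp2d11 (0.70), Cyp2d12 (0.74) and Cyp2d13 (0.85), and differences between the copies were not tested. In chromosomal order the RefSeq table lists Cyp2d22, Cyp2d11, Cyp2d10, Cyp2d9, Cyp2d12, Cyp2d34, Cyp2d13, Cyp2d40 and Cyp2d26. The 7 members past the limits are thus neighbours, and the other 2 close the list at one end. This run depends on the fold limit and on HFD replicate 5. Without that array Cyp2d11, Cyp2d12 and Cyp2d22 were under the fold limit on both diets, which breaks the run.

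The 2 fiber diets showed no call in any Cyp2d member: the differences of inul PB from inulin ran from -0.29 to 0.35 with 0 members changed, where 0.909% of all probes did, and by adjusted P 0 of 29 members and 0.0405% of all probes passed. Against LFD, the mean of the 2 fiber diets was higher for Cyp2d9 (1.13 ± 0.304, 2.18-fold, adjusted P = 0.0799 in limma) and Cyp2d10 (0.99 ± 0.258, 1.98-fold, adjusted P = 0.0711). These were the 2 of 29 kept members past the fold and P limits in that comparison, where 2.11% of all probes passed. By adjusted P neither did, where 2.18% of all probes passed. The fiber arrays did not overlap the LFD arrays for 2 of 29 members, beside 1.44% of all probes. The 9 Cyp2d differences of fiber from LFD ran from 0.01 to 1.13.

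Markers of cell types moved in the same comparisons. Of the 12 absorptive colonocyte markers kept, 0 fell on either fiber diet while 4 rose on inulin and 5 on inul PB, among them the chloride exchanger gene Slc26a3 (1.04 and 1.21) and the carbonic anhydrase gene Car4 (0.82 and 1.204). Their summed log2 signal was 19.40 to 19.91 on HFD, 20.01 to 20.21 on inulin, 20.03 to 20.21 on inul PB and 19.81 to 19.99 on LFD. Of the 11 goblet cell markers, 4 fell on inulin and 8 on inul PB, including the mucin gene Muc2 (-0.93 and -1.28). Their summed signal was 19.53 to 20.20, 18.99 to 19.47, 18.93 to 19.16 and 19.30 to 19.70. All 12 and all 11 were well above background somewhere, and 0 of the 10 general epithelium markers changed on either diet, with sums of 19.62 to 20.13 over all cecum arrays. Of all probes 1.79% rose and 1.96% fell on inulin, and 4.24% rose and 3.56% fell on inul PB. More cells of a type and more RNA per cell cannot be told apart in whole tissue, and the part of these markers in the Cyp2d differences was not tested.

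Cyp2c enzymes oxidise arachidonic acid, retinoids and drugs. Of the 9 kept in cecum, Cyp2c67 and Cyp2c68 fell on both fiber diets and the other 7 changed on neither. Cyp2c67 ran from 8.17 to 11.14 on HFD (median 8.54), from 6.98 to 8.24 on inulin (median 7.85), and was 7.52, 7.24, 7.08, 7.15 and 7.89 on inul PB and 7.96, 9.06, 8.49, 7.61 and 8.45 on LFD. All inul PB arrays were below all HFD arrays, and the inulin arrays overlapped them narrowly. The log2 difference was -1.202 ± 0.402 on inulin, 2.30-fold lower (adjusted P = 0.142 in limma, exact permutation P = 0.00649), and -1.51 ± 0.421 on inul PB, 2.85-fold lower (adjusted P = 0.034). Without HFD replicate 5, its highest array, the differences were -0.75 and -1.06. The inulin call was lost without inulin replicate 1 (-1.22), 5 or 6 (both -1.06). A second Cyp2c67 probe gave -1.11 and -1.32, and both were past the limits.

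Cyp2c68 ran from 7.42 to 9.39 on HFD (median 7.53), from 6.28 to 7.34 on inulin (median 6.62), from 6.09 to 6.87 on inul PB (median 6.40) and from 6.96 to 8.13 on LFD (median 7.09). No fiber array reached the HFD range. The differences were -1.18 ± 0.293 (2.27-fold lower, adjusted P = 0.0469 in limma) and -1.36 ± 0.308 (2.57-fold lower, adjusted P = 0.0109), and -0.88 and -1.06 without HFD replicate 5. LFD was at -0.57 ± 0.421 for Cyp2c67 and -0.53 ± 0.308 for Cyp2c68 and passed for neither.

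**Figure D3:**
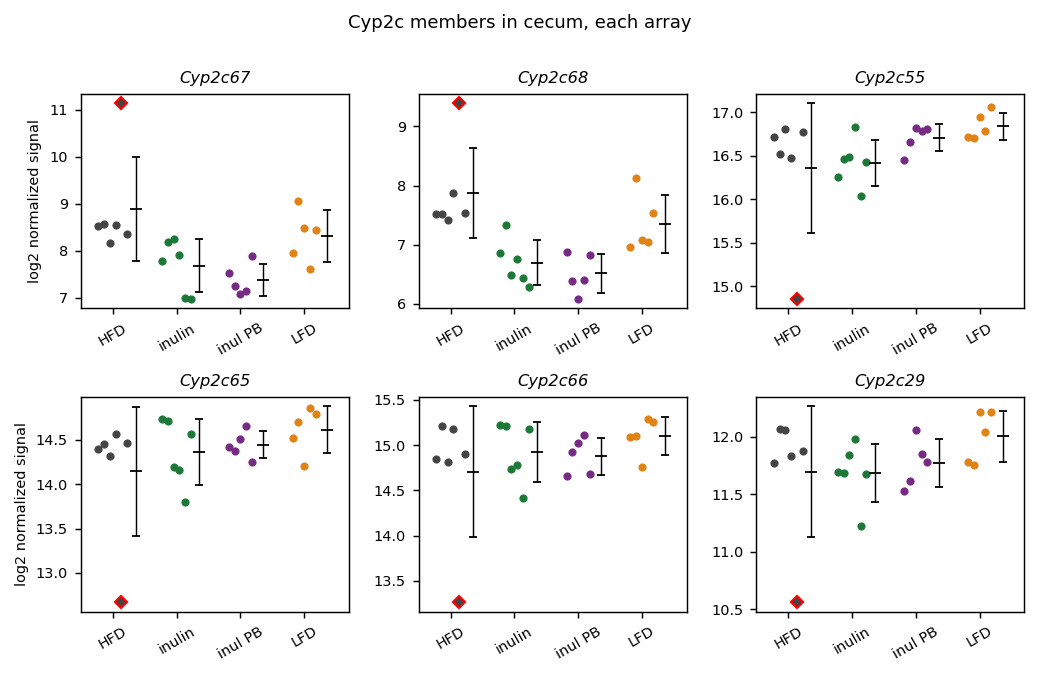
Normalized log2 signal of Cyp2c members in cecum by diet, 1 point per array with the mean ± SD beside it, and a red-edged diamond for HFD replicate 5. The inulin and inul PB arrays of Cyp2c68 (6.09 to 7.34) lie below the HFD arrays (7.42 to 9.39), while for Cyp2c55 the fiber arrays lie among the HFD arrays and HFD replicate 5 is lowest at 14.86.

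The other kept Cyp2c genes did not pass against HFD on any diet. Cyp2c55, a member known for high expression in the large intestine, ran from 16.03 to 16.83 on inulin, 16.45 to 16.82 on inul PB, 14.86 to 16.80 on HFD and 16.70 to 17.06 on LFD, and differed from HFD by 0.06 ± 0.241, 0.35 ± 0.253 and 0.48 ± 0.253. Cyp2c65 and Cyp2c66 differed by 0.17 to 0.47 over the 3 diets and Cyp2c29 by -0.01 to 0.31, and none passed. HFD replicate 5 was the lowest HFD array for each of these 4 genes and the highest for Cyp2c67 and Cyp2c68. It lowers the HFD mean of these 4 genes and so raises their differences from HFD, which are not given without it. Cyp2c37, Cyp2c38 and Cyp2c70 did not pass either (-0.01 to 0.75). The genes nearest the background limit were Cyp2c37, kept with 18 of 22 arrays well above background, and Cyp2c23, not kept with 17 of 22. Cyp2c54 had 7 such arrays, none of them on a fiber diet, and was not kept.

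Cyp2j enzymes make epoxides from arachidonic acid. All 4 kept members lay lower on inulin than on HFD, at -0.63 for Cyp2j9, -0.49 for Cyp2j6, -0.47 for Cyp2j8 and -0.33 for Cyp2j13, but only Cyp2j9 passed the 1.5-fold limit (1.55-fold lower, adjusted P = 0.0696 in limma, exact permutation P = 0.0108). Cyp2j9 ran from 8.62 to 9.25 on HFD, 7.77 to 8.88 on inulin, 8.14 to 8.88 on inul PB and 8.59 to 9.19 on LFD, and the ranges overlapped. It dropped below the fold limit without HFD replicate 1 (-0.58), HFD replicate 4 (-0.57) or inulin replicate 3 (-0.51), and with normexp (-0.44) or the authors' processed values (-0.47), and was at -0.70 without HFD replicate 5. On inul PB the 4 differences were -0.24 to -0.36 and 0 passed. A second probe of Cyp2j13, well above background on 17 arrays, pointed the other way (0.37 on inulin).

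Cyp2e1, which oxidises ethanol and acetone and is also made in fat cells, had the widest spread of all kept members. Its HFD arrays ran from 8.40 to 13.02 (median 10.20) and its inulin arrays from 3.48 to 11.43 (median 7.20). On inul PB it was 4.84, 4.68, 4.94, 10.23 and 7.24, and on LFD 10.74, 11.32, 12.40, 4.57 and 11.09. Low arrays of 3.48 to 5.89 occurred on all diets but HFD, and every group overlapped HFD. It was well above background on 6 of 6 HFD, 4 of 6 inulin, 3 of 5 inul PB and 4 of 5 LFD arrays. The differences from HFD were -2.96 ± 1.49, -4.11 ± 1.56 and -0.48 ± 1.56 and none passed. Cyp2e1 passed the background limit through its HFD arrays, and the differences include arrays not well above background, so they are given with no P. Without HFD replicate 5 Cyp2e1 was at -2.78 and -3.93 on the fiber diets. A second probe, well above background on 14 of 22 arrays, was at -4.31 on inul PB and past the limits. For the same reason that call is not read as a result.

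Fat cell markers moved with Cyp2e1 over the same arrays. Of all probes 1.96%, 3.56% and 0.357% fell on inulin, inul PB and LFD. Of 10 adipocyte markers on the array 9 were kept, and 0, 5 and 0 of them fell on these diets, with median differences of -1.57, -3.05 and -0.41. Their summed signal was 15.65 to 17.87 on HFD, 15.30 to 17.13 on inulin, 15.48 to 16.02 on inul PB and 15.69 to 17.48 on LFD. The adiponectin gene Adipoq was 2.86, 3.88, 2.72, 10.09 and 8.08 on inul PB and 2.50 on the LFD array where Cyp2e1 was at 4.57. Of the 9 cecum arrays with the lowest Cyp2e1, 8 were among the 9 with the lowest Adipoq of 22. The part of fat tissue in the Cyp2e1 values was not tested.

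**Figure D4:**
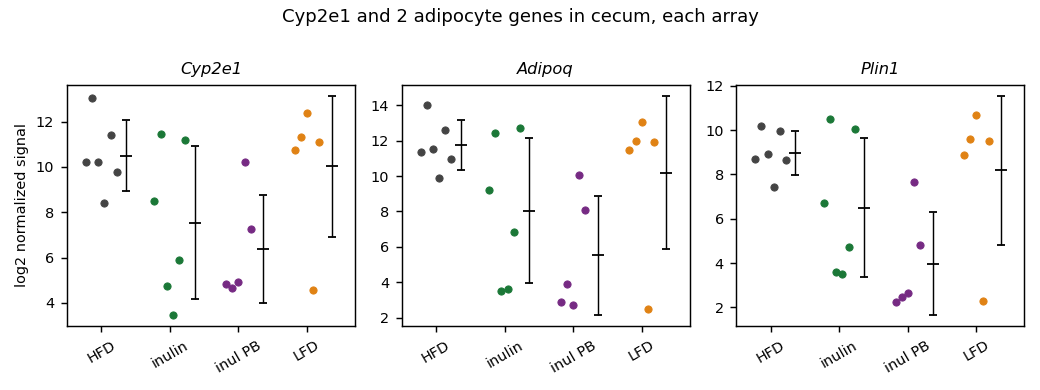
Normalized log2 signal of Cyp2e1 and of the fat cell genes Adipoq and Plin1 in cecum by diet, 1 point per array with the mean ± SD beside it. The low arrays of Cyp2e1 (such as LFD at 4.57) are low for Adipoq (2.50) and Plin1 too.

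The remaining kept members in cecum did not change on any diet against HFD by the probe used. Cyp2s1, a retinoid-oxidising enzyme of epithelia, was within 0.15 of HFD on all 3 diets. Cyp2w1, known from fetal gut and colon tumours, was at 0.21 on inulin and 0.43 on inul PB, and Cyp2t4 at 0.17 and -0.24. Cyp2r1, the vitamin D 25-hydroxylase, was at 0.54 and 0.39, and its second probe at -0.16 and -0.79 (adjusted P = 0.0286 in limma on inul PB, past the limits), so the probes disagree. Cyp3a13, the main Cyp3a of the mouse gut, was at 0.01 and 0.40, and its second probe at 0.46 and 0.74 (adjusted P = 0.0118 on inul PB, past the limits). Cyp3a11 was at 0.27 and 0.23. Cyp1a1, Cyp1b1, Cyp2f2 and Cyp2u1 were not kept, with 13, 8, 11 and 0 of 22 arrays well above background, and no Cyp1, Cyp2a or Cyp2b gene was kept in cecum.

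The other genes of the pathway moved in both directions in cecum. Of 13 kept receptors and partners, only the retinoid X receptor gene Rxra rose (0.62 on inulin and 0.66 on inul PB, adjusted P = 0.0266 and 0.00777 in limma), and 0 fell. Of 13 electron donors and heme synthesis genes 0 changed. Of the 7 kept AhR battery genes 0 changed on inulin, and Ugt1a6a rose on inul PB (0.64). Of 12 PXR and CAR targets outside the P450s, Gsta2 (-1.45) and Ces2a (-1.30) fell on inulin, Gsta2 (-1.61) and Abcc4 (-0.70) fell on inul PB and Abcc3 (0.61) rose there. Of 25 glutathione transferases and glucuronosyltransferases, 4 fell and 1 rose on inulin, and 3 fell and 3 rose on inul PB. Those that fell were the alpha class transferases Gsta2, Gsta3 (-0.94 and -0.97) and Gsta4 (-0.76 and -0.96), and on inulin Mgst2 (-0.68). Those that rose were Gstk1 (0.76) on inulin, and Gstm6 (0.90), Gstt1 (0.68) and Ugt1a6a on inul PB. On LFD 0 genes of these lists changed. Of all probes 3.75% changed on inulin, 7.8% on inul PB and 0.633% on LFD.

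In liver 2 members passed the limits against HFD, each on 1 diet. Of 43 kept members 0 changed on inulin (0.355% of all 24194 probes did), 1 on inul PB (Cyp1a1, upward, where 0.19% did) and 1 on LFD (Cyp2b10, downward, where 0.918% did). By adjusted P 0 members passed in any of the 5 liver comparisons, beside 0% of all probes in 3 of them, 0.062% for LFD against HFD and 0.103% for fiber against LFD. An unadjusted P below 0.05 was reached by 5, 3 and 8 members against HFD on inulin, inul PB and LFD, beside 4.97%, 3.56% and 10.6% of all probes. The median difference was -0.077, -0.055 and -0.103, against 0, -0.001 and -0.002 for all probes. Cyp1a1, Cyp2b10, Cyp2g1 and Cyp2s1 were kept without being well above background on every array. With only members well above background on every array, 0 changed on inul PB and 0 on LFD.

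Cyp2b10, the P450 most strongly switched on by CAR in mouse liver, was lowest on LFD. Its signal ran from 7.13 to 11.28 on HFD (median 8.71), from 7.21 to 8.99 on inulin (median 8.29), from 5.72 to 9.02 on inul PB (median 8.00) and from 3.46 to 7.35 on LFD (median 5.15). The highest LFD array overlapped the lowest HFD array, and 4 of 6 LFD arrays were well above background. LFD differed from HFD by -3.69 ± 0.688, with -4.23, -3.22 and -3.63 within the 3 slides and -2.30 with normexp. Cyp2b10 passed the background limit through the 3 high fat diets, and its LFD values include arrays not well above background. Its differences from LFD are therefore given with no fold or P. Inulin (-0.72 ± 0.688) and inul PB (-1.27 ± 0.688) did not pass against HFD. The mean of both fiber diets was 2.69 ± 0.595 above LFD, or 1.52 with normexp and 1.75 with the authors' processed values. Leaving out any 1 array kept LFD between -4.12 and -3.21, but these values and those within slides come from the same arrays. The Cyp2b10 calls that involve LFD are counted but, because of the background limit, not read as a result. The related Cyp2b9 and Cyp2b13 had 3 arrays each well above background and were not kept. Each had 0 of 6 on LFD and also 0 of 6 on inul PB, and HFD replicate 4 was the highest array of all 3 genes.

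In the lists of receptors and of PXR and CAR targets, 3 genes fell on LFD in liver, where 0.409% of all probes fell. The gene of CAR itself, Nr1i3, from the list of 14 kept receptors and partners, was at -0.82 ± 0.204 (1.76-fold lower, adjusted P = 0.253 in limma) and the rest did not change. Of 14 kept PXR and CAR targets outside the P450s, the bile acid exporter gene Abcc3 (-1.08 ± 0.143, adjusted P = 0.0035) and the retinal dehydrogenase gene Aldh1a1 (-0.74 ± 0.124, adjusted P = 0.035) fell and the rest did not change. Abcc3 ran from 12.15 to 12.98 on LFD and from 13.25 to 13.76 on HFD, with no overlap, as did 1.18% of all probes. Among the Cyp2c members, Cyp2c54 (-0.49 ± 0.147, exact permutation P = 0.0173), Cyp2c50 (-0.42, P = 0.0455) and Cyp2c37 (-0.40, P = 0.0433), which follow each other on the chromosome, were lower on LFD by less than 1.5-fold and did not pass. The other 2 Cyp2c54 probes gave -0.54 and -0.27 and the second Cyp2c37 probe -0.25. Cyp2j5 (-0.35 ± 0.087, exact permutation P = 0.00866) and Cyp2d26 (-0.25 ± 0.06, P = 0.00433) were also lower on LFD by less than 1.5-fold.

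Cyp1a1, the classic AhR target, was dim in liver: it was well above background on every array of the 3 high fat diets and on 1 of 6 LFD arrays. On inul PB it was 6.80, 7.18, 5.85, 5.51, 6.99 and 5.70, and on HFD 5.13, 5.80, 5.21, 5.36, 6.20 and 5.40. On inulin it ran from 5.24 to 5.71 and on LFD from 4.28 to 5.72. The 3 highest inul PB arrays stood above all arrays of the other diets, and the other 3 did not. The difference of inul PB from HFD was 0.82 ± 0.283, 1.77-fold (adjusted P = 1 in limma, exact permutation P = 0.0476). From inulin it was 0.90 ± 0.283, 1.86-fold (adjusted P = 1, exact permutation P = 0.0108), the 1 of 43 changed in that comparison beside 0.0744% of all probes. The call against HFD was lost in 7 of 12 fits that left out 1 array of the 2 diets (0.65 to 0.99 over all 12), with 75th percentile scaling (0.81), with quantile normalization (0.80), with only the diets compared, and under the fold limit with normexp (0.43) and the authors' processed values (0.52). Against inulin Cyp1a1 was under the fold limit in the last 2 as well (0.46 and 0.56). Cyp1a2, the major family 1 enzyme of liver, was at 0.13, 0.31 and -0.19 on inulin, inul PB and LFD, and Cyp1b1 was not kept.

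Of the 43 members 3 were higher on the mean of the 2 fiber diets than on LFD and 0 were lower, where 0.88% of all probes changed, 0.31% upward and 0.57% downward. They were Cyp2b10, Cyp1a1 (0.96 ± 0.245) and Cyp2a4 (0.93 ± 0.287, 1.91-fold, adjusted P = 0.353 in limma). Cyp2b10 and Cyp1a1 passed the background limit through the high fat diets, which favours this direction. With only members well above background on every array the count was 1, Cyp2a4. Cyp2a4, a testosterone hydroxylase, ran from 14.02 to 15.50 on LFD, 14.87 to 16.68 on HFD, 15.10 to 16.44 on inulin and 14.63 to 16.73 on inul PB, with overlap throughout. No probe was matched to Cyp2a5 of the same subfamily, so the Cyp2a4 signal is uncertain as to the exact copy. Cyp1a1 was well above background on 1 of 6 LFD arrays, so no fold or P is given against LFD. Its difference was 0.37 with normexp and 0.44 with the authors' processed values, both under the fold limit. Cyp2a4 was at -0.90 ± 0.332 on LFD against HFD (exact permutation P = 0.0173), which did not pass. The Cyp2a4 call against the fiber diets was lost without LFD replicate 4, the lowest array (0.74).

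Cyp3a11, the main drug-oxidising Cyp3a of mouse liver and a PXR target, was spread unevenly on inulin, at 16.20, 14.63, 14.52, 14.88, 14.98 and 16.59, against 14.19 to 15.07 on HFD. Cyp3a16 had its 2 highest inulin values, 13.51 and 13.89, on the same 2 arrays. Their differences on inulin were 0.59 ± 0.331 and 0.65 ± 0.312 and neither passed. Cyp3a25 was at -0.57 ± 0.207 on inulin (exact permutation P = 0.0195), Cyp3a13 at -0.02, and neither passed.

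**Figure D5:**
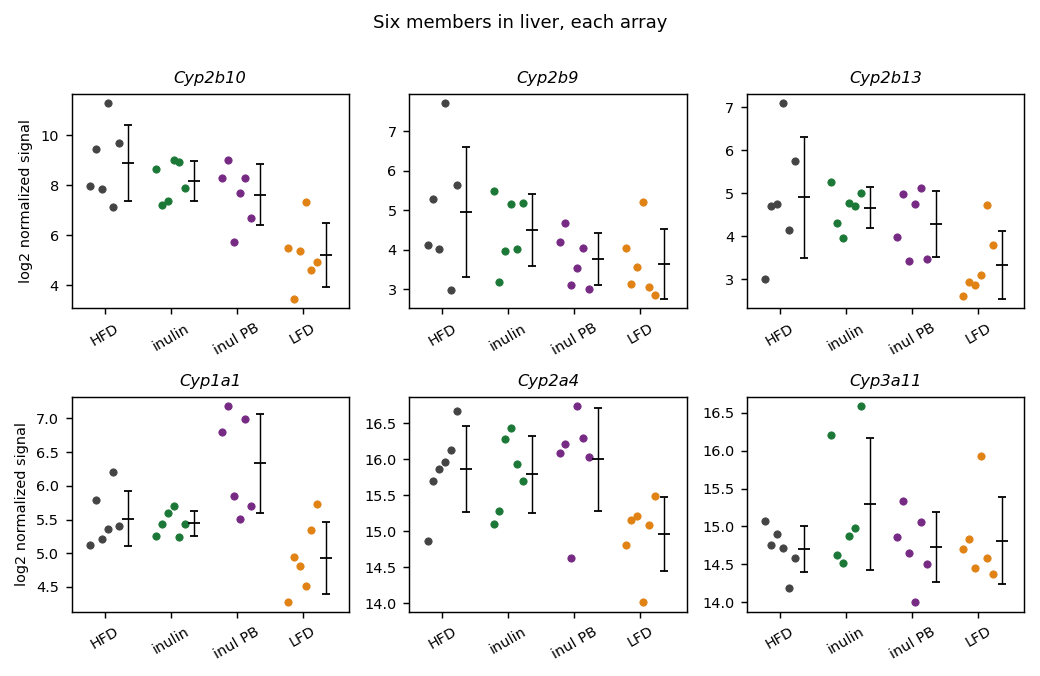
Normalized log2 signal of family 1 to 3 members in liver by diet, 1 point per array with the mean ± SD beside it. The panels are Cyp2b10, Cyp2b9, Cyp2b13, Cyp1a1, Cyp2a4 and Cyp3a11: the LFD arrays of Cyp2b10 (3.46 to 7.35) are low, 3 inul PB arrays of Cyp1a1 are high, and 2 inulin arrays of Cyp3a11 (16.20 and 16.59) lie above the other inulin arrays.

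The other liver members did not pass on any diet against HFD. Cyp2e1 ran from 17.76 to 18.38 over all 24 arrays and Cyp2f2, a periportal hepatocyte enzyme, from 16.75 to 17.27, and no member probe was saturated on any array. Against HFD on the 3 diets, Cyp2a12 was within -0.26 to -0.06, Cyp2c29 within -0.15 to -0.02, Cyp2c70 within -0.36 to 0.35, Cyp2r1 within -0.03 to 0.11, Cyp2u1 within -0.06 to 0.11, Cyp2t4 within -0.03 to 0.30, Cyp2j8 within -0.14 to -0.08, Cyp2s1 within -0.50 to -0.22 and Cyp2g1 within -0.96 to 0.01. For Cyp2g1 and Cyp2s1 the SE was 0.661 and 0.573, so a difference of that size was not detectable with these arrays. The 9 Cyp2d members, of which 7 rose in cecum, were within -0.25 to 0.05 of HFD in liver, and Cyp2d9 there was at -0.03 (95% confidence interval -0.22 to 0.16) on inulin and -0.07 (-0.26 to 0.12) on inul PB.

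The difference between tissues was tested with all 46 arrays normalized together, for the 25 members kept in both tissues with the same probe. The inulin effect differed between cecum and liver for 2 members by adjusted P, where 0.468% of probes kept in both tissues did: Cyp2d9 (cecum minus liver 1.62, adjusted P = 0.0151 in limma) and Cyp2d13 (0.99, adjusted P = 0.0309). The inul PB effect differed for 8, where 4.07% of probes did. They were Cyp2d9 (1.54), Cyp2d10 (1.52), Cyp2d34 (1.26), Cyp2d13 (1.26), Cyp2d11 (0.80) and Cyp2d22 (0.72), all more positive in cecum, and Cyp2c67 (-1.70) and Cyp2c68 (-1.57), more negative in cecum, with adjusted P from 0.00153 to 0.0479. Without cecum HFD replicate 5 the counts were 4 and 8. The LFD effect differed for 0 of 25, where 0.0713% of probes did. Labels do not pair the cecum and liver of a mouse, so the tissues were treated as separate samples.

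In the same normalization, 20 of these 25 members had all liver arrays above all cecum arrays, where 18.6% of the probes kept in both tissues did, and 3 had all cecum arrays above all liver arrays, where 18.1% did. The 3 brighter in cecum were Cyp2c55 (median 16.48 in cecum and 7.06 in liver), Cyp2s1 (13.67 and 7.35) and Cyp3a13 (13.80 and 12.67). Cyp2j6 and Cyp2t4 overlapped. Members kept in 1 tissue only are left out of these counts, since the background limit itself favours the tissue where they are bright. Cyp2d9 was among those brighter in liver, with a cecum median of 9.37 and a liver median of 15.66.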

How the data were processed

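RNA from whole cecum, with contents removed, and from liver was hybridised to 1-colour Agilent mouse arrays, and the deposited scanner files hold intensity values per spot: the authors' Feature Extraction software had already subtracted background to give the processed signal. The deposited table of processed log2 values, which the authors made by cyclic loess with identical probes averaged, was used only as an alternative. Its log2 columns have medians of 6.26 to 6.64, and correlate at 0.973 to 0.986 with the log2 processed signal of the same array, so its scale and direction are those of the arrays.

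Here log2 processed signals were taken without control spots and outlier flags (at most 0.627% of spots on an array), with cyclic loess within each tissue (span 0.7, 3 iterations). Spots of 1 probe were averaged, which left 55681 probes. The fit per tissue to all 4 diets used limma (version 3.58.1, under R version 4.3.3). Files were read with jsonlite 2.0.0 and the data.table package, version 1.17.8. A change was a fold over 1.5 with an unadjusted P below 0.01, as the study's methods set it, and the Benjamini-Hochberg value over all probes is given beside it. Tissue differences were tested in a joint fit of all 46 arrays at an adjusted P of 0.05. Exact permutation tests were two-sided. The scripts were tested on simulated data. The number of arrays limits the precision.

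The P450 members and all gene lists were chosen with earlier results of these data known. The genes named were the members past the limits, the brightest kept member of each subfamily and a set of well known members. Others, such as Cyp2b13, Cyp2d40 and Cyp3a16, complete a subfamily and were chosen after their values were seen. Promoters were read from RefSeq (GRCm38.p6), and probe sequences were not used here. A cecum inul PB array and a cecum LFD sample that the authors removed were not analysed here. No 2 of the 46 arrays held identical values (1035 pairs). Alternatives were 75th percentile scaling, quantile normalization, normexp background correction (offset 50, on the median rather than the mean spot signal), the authors' processed values, slide or replicate number as a block, fits with only the diets compared, other background filters, the mean over a gene's probes, an adjusted P as the limit, and leaving out each array.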

Additional observations from a re-analysis of the deposited data

Results flagged for a closer look

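In groups of 5 or 6 arrays, the highest or lowest array was checked for a gap to its neighbour that is large against the range of the group. Of 100 groups of named members checked, 15 stood out, and chance alone gives about 1 in 20.

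Cecum HFD replicate 5 accounted for 9 of the 15. It was lowest in its group for Cyp2d9 (6.66), Cyp2d10 (7.49), Cyp2d11 (12.17), Cyp2d12 (10.71), Cyp2d26 (14.48), Cyp2d34 (11.10) and Cyp2c55 (14.86), and highest for Cyp2c67 (11.14) and Cyp2c68 (9.39), all as normalized log2 signals. Without it 9 members changed on inulin, 7 of them shared with the 9 of the full set, and 6 on inul PB, all 6 of them shared. The cause of its position was not tested.

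In cecum the Cyp2e1 signal of LFD replicate 4 was 4.57, where Adipoq was at 2.50. Cyp2s1 was at 13.35 in inulin replicate 5 and at 14.12 in inul PB replicate 4. In liver Cyp2a4 was at 14.63 in inul PB replicate 3, Cyp3a11 at 15.94 in LFD replicate 4 and Cyp2e1 at 17.99 in HFD replicate 2.

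Diet effects that differed between cecum and liver by the interaction test (cecum minus liver, log2 scale) were, on inulin, those of Cyp2d9 (1.62) and Cyp2d13 (0.99). On inul PB they were those of Cyp2d9 (1.54), Cyp2d10 (1.52), Cyp2d34 (1.26), Cyp2d13 (1.26), Cyp2d11 (0.80), Cyp2d22 (0.72), Cyp2c67 (-1.70) and Cyp2c68 (-1.57). Each tissue was hybridised on slides of its own, so tissue and slide cannot be told apart.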

How the results depend on the processing

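None of the 33 named differences that were rerun reversed its direction under any alternative. The other differences given were not followed through the alternatives. The count of cecum members that changed stayed within 1.5 times of 9 on inulin and on inul PB, with 8 to 10 and 6 to 10 when single arrays were left out, and of 0 on LFD (0 to 1, where the 1 came without LFD replicate 1) and for inul PB against inulin (0 to 0). For fiber against LFD in cecum the count of 2 became 4 with normexp, 5 with only the diets compared, 0 by adjusted P, and 2 to 6 with single arrays left out: 6 without LFD replicate 4, 5 without HFD replicate 5 and 4 without inulin replicate 1, inul PB replicate 2, LFD replicate 2 or LFD replicate 3. By adjusted P 11 of 33 named differences no longer passed and 22 kept their side of the limit.

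The liver counts are small and moved more. On inulin the count of 0 became 1 with normexp and with the authors' values (0 to 1 with single arrays left out, 1 without HFD replicate 1 or 5 or inulin replicate 1 or 6). On inul PB the count of 1 became 0 with 75th percentile scaling, quantile normalization, normexp, the authors' values, only the diets compared, members above background on every array, or adjusted P (0 to 2 with single arrays left out, 2 without inul PB replicate 3). It was also 0 without HFD replicate 3, 4 or 6, inulin replicate 2 or 6, inul PB replicate 1, 2 or 5, or LFD replicate 2 or 3. On LFD the count of 1 became 2 with quantile normalization, normexp or the authors' values, 3 without a filter and 0 with members above background on every array or by adjusted P (1 to 2 with single arrays left out, 2 without HFD replicate 1, inul PB replicate 3 or LFD replicate 6). For inul PB against inulin the 1 became 0 with normexp, the authors' values, only the diets compared, members above background on every array or adjusted P (0 to 2 with single arrays left out, 0 without inulin replicate 1 or 5 or inul PB replicate 1, 2 or 5, and 2 without inul PB replicate 3). For fiber against LFD the 3 became 1 with members above background on every array and 0 by adjusted P (3 to 4 with single arrays left out).

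The tissue difference on inulin, 2 members, became 1 with 75th percentile scaling and 4 with normexp, the authors' values, slide as a block or the replicate number as a block (1 to 4 with single arrays left out, 4 without cecum HFD replicate 2, 3 or 5, and 1 without cecum HFD replicate 6, liver HFD replicate 5 or liver inulin replicate 1 or 6). On inul PB the 8 ran from 5 to 9, with 5 without cecum inul PB replicate 3 or 5, and on LFD the 0 stayed at 0 to 0.

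Replicate numbers are not stated to pair samples. Over 31 same-number pairs in cecum the correlation of deviations ran from -0.331 to 0.519 (median 0.0997) with 15 over 0.1. Over 36 in liver it ran from -0.191 to 0.555 (median 0.179) with 25 over 0.1. For 7 of 22 and 8 of 24 arrays the mean correlation was highest with their own number. Arrays of 1 number mostly share a slide. The median was 0.0855 within a slide and -0.0564 between slides in cecum, and 0.196 and -0.115 in liver. The part of the slide was not tested. With the replicate block all 33 named differences kept their side of the limit.

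Among single genes, Cyp2c67 on inulin did not pass with normexp (-0.89, P = 0.0146), the authors' values (-0.95, P = 0.0119), slide as a block (P = 0.011) or only the diets compared (P = 0.027), all in limma. Cyp2d13 on inulin fell below the fold limit with normexp (0.45) and the authors' values (0.52). With only the diets compared, Cyp2d34 on inul PB (1.29) and Cyp2d11 on inulin (0.70) did not pass the P limit. Cyp2a4 on LFD against HFD in liver passed with quantile normalization (-0.93), normexp (-0.92) and the authors' values (-0.91). Cyp2e1 on inul PB was at -5.07 without inul PB replicate 4 and at -3.19 with the authors' values. Its call moved with the setting and is not read as a result, since it was kept through its HFD arrays. The causes were not tested. Signal over background limits Cyp1a1, Cyp2b10, Cyp2g1 and Cyp2s1 in liver and Cyp2c37, Cyp2d40, Cyp2e1 and Cyp2w1 in cecum.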
